A study of Mus musculus with 12 samples.

Results

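Loss of the regulator of G protein signalling Rgs4 was examined in mouse lung exposed to the mould Aspergillus fumigatus (Af), by setting the 3 libraries from exposed knockout mice (KO_Af) against the 3 from exposed wild-type mice (WT_Af), 6 of the 12 libraries of the series. The members are the genes that reached 1 CPM (a read count scaled to library size) in 3 or more of the 12 libraries, 16126 of the 49585 listed. Poly-A RNA of whole lung was sequenced, the strain label of every sample is Balb/cJ, and the form, dose, route and timing of the exposure, the age of the mice and the design of the knockout allele are not stated in the material used here. WT_Af and KO_Af differ only in the Rgs4 genotype by their labels, and WT_PBS and KO_PBS are the same genotypes given phosphate-buffered saline. Libraries are named by group and library number: WT_Af 18, 19 and 20, KO_Af 12, 13 and 14, WT_PBS 15, 16 and 17, KO_PBS 9, 10 and 11. Every KO number is below every WT number, so genotype and library order cannot be told apart.

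RGS proteins speed the hydrolysis of GTP on G protein alpha subunits and so shorten signals from receptors coupled to Gq and Gi. Rgs4 belongs to the small R4 subfamily and is known in the airway from smooth muscle, where Gq-coupled receptors drive contraction. Inhaled Aspergillus is a common model of allergic airway inflammation with type 2 cytokines, eosinophils and mucus.

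The libraries held 20708884 to 30229446 reads. Levels are the deposited CPM, differences are KO minus WT on the log2(CPM + 0.5) scale with standard errors (SE) from limma, and a gene is called at a Benjamini-Hochberg adjusted p under 0.05 over all tested genes. KO_Af 12 stood apart. On the first principal component of the 6 Af libraries, which held 44.1% of the variance, it lay at 47.1 and the other 5 between -22.3 and 7.34. Relative to the other KO_Af libraries, the 4034 genes with the shortest transcripts were higher by a median of 0.15 (log2) in it and the 4022 with the longest differed by -0.22. Between KO_Af and WT_Af the median difference was 0.06 over those shortest genes and -0.08 over those longest. Ribosomal protein genes took 4.66% of the CPM of KO_Af 12 against 2.93 to 3.47% in the other Af libraries. Krt13, a keratin of squamous epithelium, was at 137 CPM in KO_Af 12 and at most 0.506 CPM in the other Af libraries, and was too often low to be tested. The median within-group SD over genes was 0.22 (log2) in KO_Af and 0.12 in WT_Af. Lung epithelial markers were present in all 6: Sftpc, of alveolar type 2 cells, ran from 5709 to 13642 CPM and Scgb1a1, of club cells, from 6597 to 12895 CPM.

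Between KO_Af and WT_Af 14 genes were called, 0.0868% of those tested: 6 were higher in KO (0.0372%) and 8 lower (0.0496%). The higher genes were Ccdc190, Sult4a1, Ankrd37, Apold1, Gm7068 and Nanp, and the lower ones Rgs4, Hsph1, Trim65, Gm7694, Dnaja1, Hey1, Abi3bp and Fam193b. In each of them the 3 KO_Af values lay on 1 side of the 3 WT_Af values. At an unadjusted p under 0.05 there were 1807 genes, 11.2% of those tested. Of the 14, edgeR's quasi-likelihood test on reads recovered from the CPM called 12, losing Dnaja1 and Nanp, and DESeq2 called 13 among 187, with the adjusted p of Gm7068 left empty. Rgs4, Ccdc190 and Trim65 were called whichever single Af library was left out. Without WT_Af 18 those 3 were the calls left, without WT_Af 19 there were 6, without WT_Af 20 there were 5 and without KO_Af 14 there were 4 of the 14 left among 6 calls. Without KO_Af 12 there were 14 calls, 8 of them among the first 14, and without KO_Af 13 there were 110, which held all 14. Rescaling each library to the same total gave 20 calls, the first 14 among them, 6 higher and 14 lower. A fit of the KO_Af and WT_Af libraries alone called Rgs4, Ccdc190 and Sult4a1 only, and limma with array weights, which gave KO_Af 12 a weight of 0.120, called 2204 genes.

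**Figure D1:**
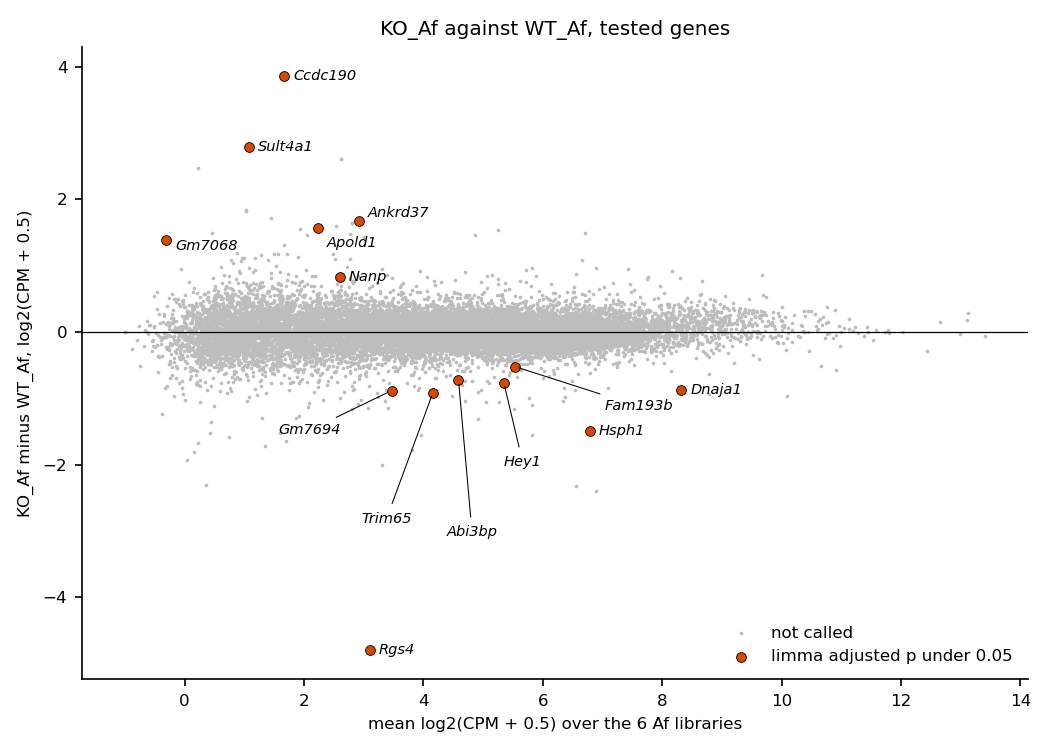
Each point is 1 of the 16126 tested genes: the horizontal axis is its mean log2(CPM + 0.5) over the 6 Af libraries and the vertical axis the KO_Af minus WT_Af difference on the same scale. The 14 called genes are marked and named, with Rgs4 at -4.80 and Ccdc190 at 3.86 farthest from 0.

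Rgs4 itself checks the labels. It was at 48.8, 42.7 and 43.8 CPM in WT_Af 18, 19 and 20 and at 1.14, 1.47 and 0.848 CPM in KO_Af 12, 13 and 14 (22 to 32 reads). All 3 KO libraries were far below all 3 WT libraries, which leaves 2.56% of the WT mean. The difference was -4.80 ± 0.18 (SE, log2, n = 3 and 3, limma adjusted p = 1.27e-07). Rgs4 (ENSMUSG00000038530) lies at chr1:169741477-169747642 on the minus strand of GRCm38. Among the 18 tested RGS genes Rgs4 alone was called under Af. Every KO_Af library was below every WT_Af library in 4 of them (22.2%), Rgs4, Rgs6, Rgs11 and Rgs14, beside a background of 6.1% of all genes, and above in none. Rgs4 is the knocked-out gene, so its place among the 4 was set by the design. Rgs5, the smooth muscle and pericyte RGS gene that neighbours Rgs4, was at 63.5, 45.9 and 24.6 CPM in WT_Af and 60.9, 31.8 and 60.1 CPM in KO_Af. The groups overlapped (0.23 ± 0.33, limma adjusted p = 0.795). Rgs3, which was higher in KO under PBS (0.53, limma adjusted p = 0.0169), was -0.27 ± 0.10 under Af (limma adjusted p = 0.401) with overlapping groups.

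The largest difference upward was that of Ccdc190 (ENSMUSG00000070532, chr1:169928648-169934653, plus strand), a coiled-coil domain gene whose start is 0.187 Mb from Rgs4. It was at 0.384, 0.197 and 0.449 CPM in WT_Af and 12.0, 10.2 and 13.0 CPM in KO_Af. In reads that is 6 to 12 per WT library and 222 to 338 per KO library. Ccdc190 reached 1 CPM in KO libraries only, so it was tested because of the groups in which it is high. The difference was 3.86 ± 0.18 (limma adjusted p = 6.58e-07) and under PBS it was 3.40 (limma adjusted p = 2.78e-06). Gm7694 (chr1:170298199-170306332, minus strand), 0.557 Mb from Rgs4, was at 14.2, 14.9 and 14.5 CPM in WT_Af and 6.84, 8.73 and 7.48 CPM in KO_Af, a difference of -0.88 ± 0.12 (limma adjusted p = 0.0212). The KO libraries were all lower, at 52.9% of the WT mean. The call was lost without any 1 of the WT_Af libraries or KO_Af 14. Under PBS the difference was -0.46, in the same direction and not called (limma adjusted p = 0.0564). Gm7694 overlaps Nos1ap on the same strand, which was -0.41 (limma adjusted p = 0.396).

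Counted without Rgs4, 2 of the 13 tested genes that start within 1 Mb of it were called under Af (15.4%), and 6 of the 13 (46.2%) had groups that did not overlap, against 13.8% on the other chromosomes. Ccdc190 is among both the 2 and the 6, and it is in the counts only because KO libraries reached 1 CPM. On the other chromosomes 10 of 15135 genes were called (0.0661%). Within 5 Mb there were 115 tested genes, the same 2 calls, and 8 genes at an unadjusted p under 0.01: Ccdc190, Gm7694, Uhmk1, Sh2d1b1, Gm9929, Dusp12, Fcgr3 and Usp21. Of the uncalled ones, Uhmk1, a protein kinase gene, was at 126, 129 and 129 CPM in WT_Af and 88.2, 102 and 87.2 CPM in KO_Af (-0.47 ± 0.08, limma adjusted p = 0.0689). Sh2d1b1, an adaptor of SLAM family receptors in natural killer cells, was at 4.61, 3.34 and 4.42 CPM against 2.75, 1.56 and 1.81 CPM (-0.88 ± 0.19, limma adjusted p = 0.154). Both lay below WT in every KO library, and both were called lower in KO under PBS, at -0.33 and -0.86. Fcgr3, a low-affinity IgG receptor of myeloid cells, lay above WT in every KO library, at 132, 148 and 164 CPM against 243, 220 and 227 CPM (0.64 ± 0.15, limma adjusted p = 0.205), and was -0.21 under PBS (limma adjusted p = 0.538). Under PBS 13 of the 115 were called (11.3%), Ccdc190 among them, against 3.55% of all tested genes. What the alleles or the strain background around Rgs4 contribute was not tested.

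**Figure D2:**
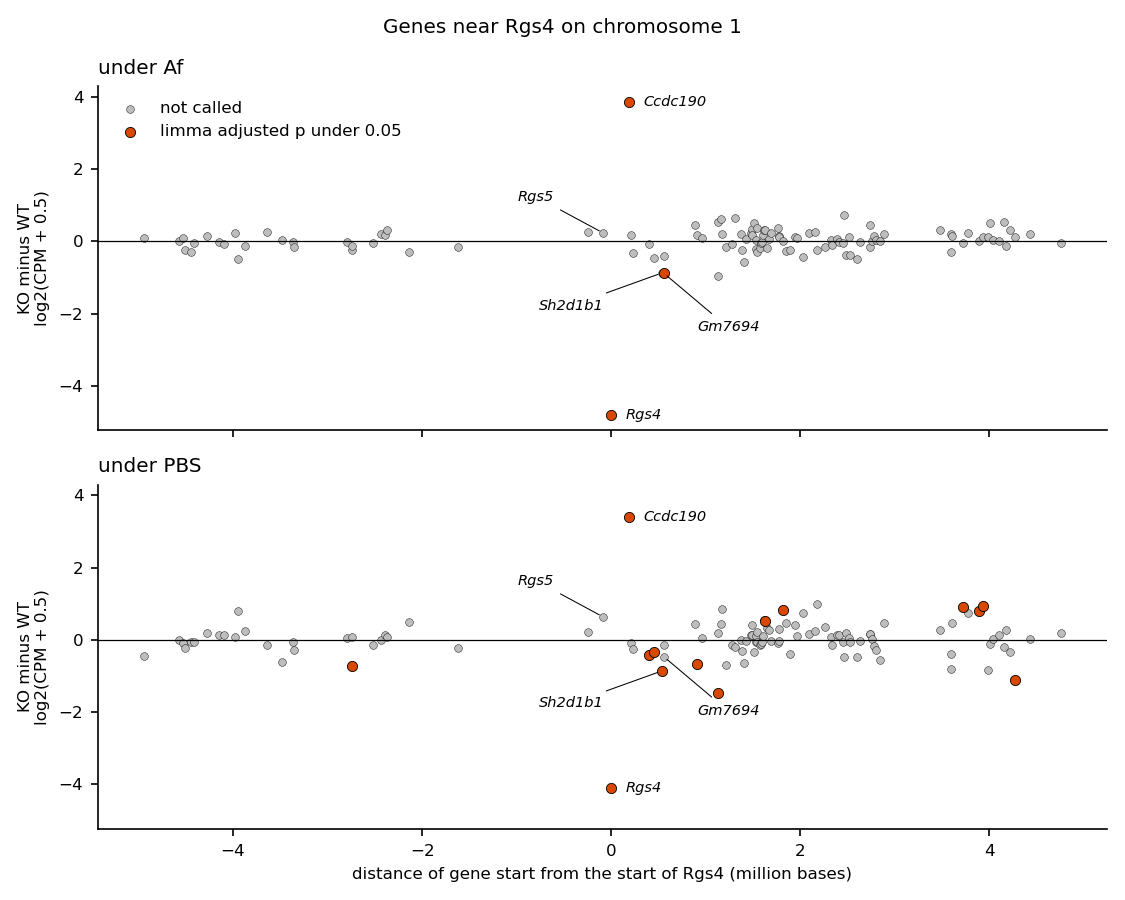
Each point is 1 tested gene within 5 Mb of Rgs4 on chromosome 1, placed by the distance of its start from that of Rgs4 (horizontal axis, Mb) and by its KO minus WT difference in log2(CPM + 0.5) (vertical axis), under Af above and PBS below. Beside Rgs4, Ccdc190 lies farthest from 0 under both exposures, at 3.86 and 3.40, and Gm9929 is below 0 under both, at -0.97 and -1.46.

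Of the heat shock chaperones 2 were called lower in KO_Af, and many others lay below WT without being called. These proteins fold or refold others: HSP70 and HSP110 proteins with J-domain partners act on new or unfolded chains and HSP90 with co-chaperones on signalling proteins, and heat shock factor 1 (Hsf1) raises many of the genes under stress through sites built from repeats of GAA and TTC. Of the 37 tested members 2 were called, both lower (Hsph1 and Dnaja1), and 17 had every KO_Af library below every WT_Af library, 45.9% beside 6.1% of all genes, while none lay wholly above (7.66% of all genes). The median difference over the list was -0.18, beside 0.00 over all tested genes. Without KO_Af 12, 20 of the 37 lay wholly below (54.1%, beside 10.7% of all genes in that comparison) and the median was -0.21. The list was chosen knowing that it was lower in KO under PBS, where 25 members were called lower and the median was -0.70.

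Hsph1, the HSP110 gene, whose protein reloads HSP70 with ATP, was at 177, 240 and 151 CPM in WT_Af and 58.0, 77.9 and 62.5 CPM in KO_Af. The lowest WT library was above the highest KO library, and the difference was -1.49 ± 0.18 (limma adjusted p = 0.0122), 2.82-fold. Dnaja1, a J-domain partner of HSP70, was at 437, 493 and 376 CPM in WT_Af and 259, 249 and 204 CPM in KO_Af. Its groups did not overlap and differed by -0.87 ± 0.14 (limma adjusted p = 0.0462), 1.83-fold. The call for Hsph1 was lost without WT_Af 18 or KO_Af 14, and that for Dnaja1 without any 1 of WT_Af 18, 19, 20, KO_Af 12 or 14.

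Stretches before a RefSeq start of these genes and of Hspa1b, the chaperone gene with the largest difference, are shown. They hold the letters that heat shock factor sites are built from. Where a gene had more than 1 RefSeq entry (2 for Hsph1, 3 for Dnaja1), the entry with the most matches was taken. A match in a printed stretch is thus no result. The Dnaja1 stretch lies inside the gene as GENCODE M21 places it (chr4:40722150-40737149). Capitals mark GAANNTTC or TTCNNGAA, and the sequences are from RefSeq (GRCm38.p6), 250 bases before the annotated start: Hsph1 at chr5:149636337-149636586 (minus strand), Dnaja1 at chr4:40722218-40722467 (plus strand) and Hspa1b at chr17:34959239-34959488 (minus strand).

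Hsph1: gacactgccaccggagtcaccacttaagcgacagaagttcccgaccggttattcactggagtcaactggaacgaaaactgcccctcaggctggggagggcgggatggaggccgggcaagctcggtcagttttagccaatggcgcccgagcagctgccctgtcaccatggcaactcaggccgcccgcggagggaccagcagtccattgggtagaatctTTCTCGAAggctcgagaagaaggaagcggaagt
Dnaja1: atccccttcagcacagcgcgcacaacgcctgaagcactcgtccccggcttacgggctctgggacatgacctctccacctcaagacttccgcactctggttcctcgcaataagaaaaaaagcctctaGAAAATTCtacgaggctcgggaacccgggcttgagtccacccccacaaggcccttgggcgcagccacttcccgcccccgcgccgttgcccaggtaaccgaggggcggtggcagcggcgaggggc
Hspa1b: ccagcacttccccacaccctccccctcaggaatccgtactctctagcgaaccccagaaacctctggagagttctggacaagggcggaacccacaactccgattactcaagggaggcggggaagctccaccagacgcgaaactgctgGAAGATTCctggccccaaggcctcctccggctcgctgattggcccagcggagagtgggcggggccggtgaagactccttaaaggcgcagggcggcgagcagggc

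Both motifs read the same on either strand. In windows of 250 bases before to 50 after the start, GAANNTTC was found in 7.86% of 32851 RefSeq promoter entries and TTCNNGAA in 8.52%. Of the 37 tested list members 31 matched the table by symbol, with 43 entries, and 15 of the 43 entries (34.9%) held GAANNTTC and 9 (20.9%) held TTCNNGAA. Counted by member, 13 of the 31 held GAANNTTC and 7 held TTCNNGAA. Among the 17 members that lay wholly below WT, 12 matched, of which 9 held GAANNTTC and 3 held TTCNNGAA. Of the 14 called genes 8 had an entry, and Hsph1 and Dnaja1 were the 2 with either motif, which 15.1% of all entries held. Counts by gene or member take a match in any entry of the gene, so they do not compare directly with shares of entries.

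The HSP70 genes Hspa1a and Hspa1b are near-identical neighbours on chromosome 17 between which reads can be split wrongly. Hspa1b was at 260, 271 and 291 CPM in WT_Af and 25.01, 123 and 44.3 CPM in KO_Af, and Hspa1a at 188, 201 and 246 CPM and 17.3, 102 and 40.4 CPM. For both, every KO library was below every WT library, with KO_Af 13 the highest of the 3, and the differences of -2.40 ± 0.70 and -2.32 ± 0.72 were not called (limma adjusted p = 0.289 and 0.332). Dnajb1, which brings HSP70 its substrates, was at 119, 123 and 106 CPM against 63.3, 54.8 and 49.97 CPM (-1.04 ± 0.25, limma adjusted p = 0.202). Its groups were well apart, and the estimate shares its error with the PBS libraries. The constitutive HSP70 Hspa8 was at 2441, 2477 and 2182 CPM against 1745, 1776 and 1272 CPM (-0.58 ± 0.15, limma adjusted p = 0.256), again with no overlap. Of the HSP90 genes, Hsp90ab1 gave -0.51 ± 0.13 and Hsp90aa1 -0.35 ± 0.12 (limma adjusted p = 0.252 and 0.366), and both lay wholly below WT, as did the co-chaperones Stip1 (-0.43), Fkbp4 (-0.48) and Chordc1 (-0.63). Bag3, a partner of HSP70 in autophagy, gave -0.50 ± 0.13 (limma adjusted p = 0.257), and Hsf1 -0.13 ± 0.07 (limma adjusted p = 0.494), from 37.3, 37.3 and 40.3 CPM to 33.0, 36.7 and 34.9 CPM. Hspb8, a small heat shock protein, went with the others under PBS (-0.68, limma adjusted p = 0.0138) but overlapped under Af (0.11 ± 0.12, limma adjusted p = 0.719).

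Every one of these differences was nearer to 0 under Af than under PBS: Hsph1 was -1.49 and -2.86, Dnaja1 -0.87 and -1.79, Hsp90aa1 -0.35 and -1.44, and Hspb8 0.11 and -0.68. The change in the difference between exposures, tested as the genotype by exposure interaction, was not called for any of them (limma adjusted p = 0.0893 for Hsph1, 0.0957 for Dnaja1, 0.0590 for Hsp90aa1 and 0.118 for Hspb8). Summed over the list, WT_Af held 9667, 10230 and 8904 CPM and KO_Af 7025, 7530 and 6476 CPM. A separate list of folding and stress genes of the endoplasmic reticulum, 20 of them tested, had 0 calls under limma. In it 4 members lay wholly below WT (Herpud1, Ddit3, Creld2 and Hspa5, 20% beside 6.1% of all genes) and 2 wholly above (10%, near the 7.66% of all genes). Herpud1, of the degradation machinery of that compartment, was at 174, 191 and 152 CPM against 142, 103 and 127 CPM (-0.48 ± 0.12, limma adjusted p = 0.252).

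**Figure D3:**
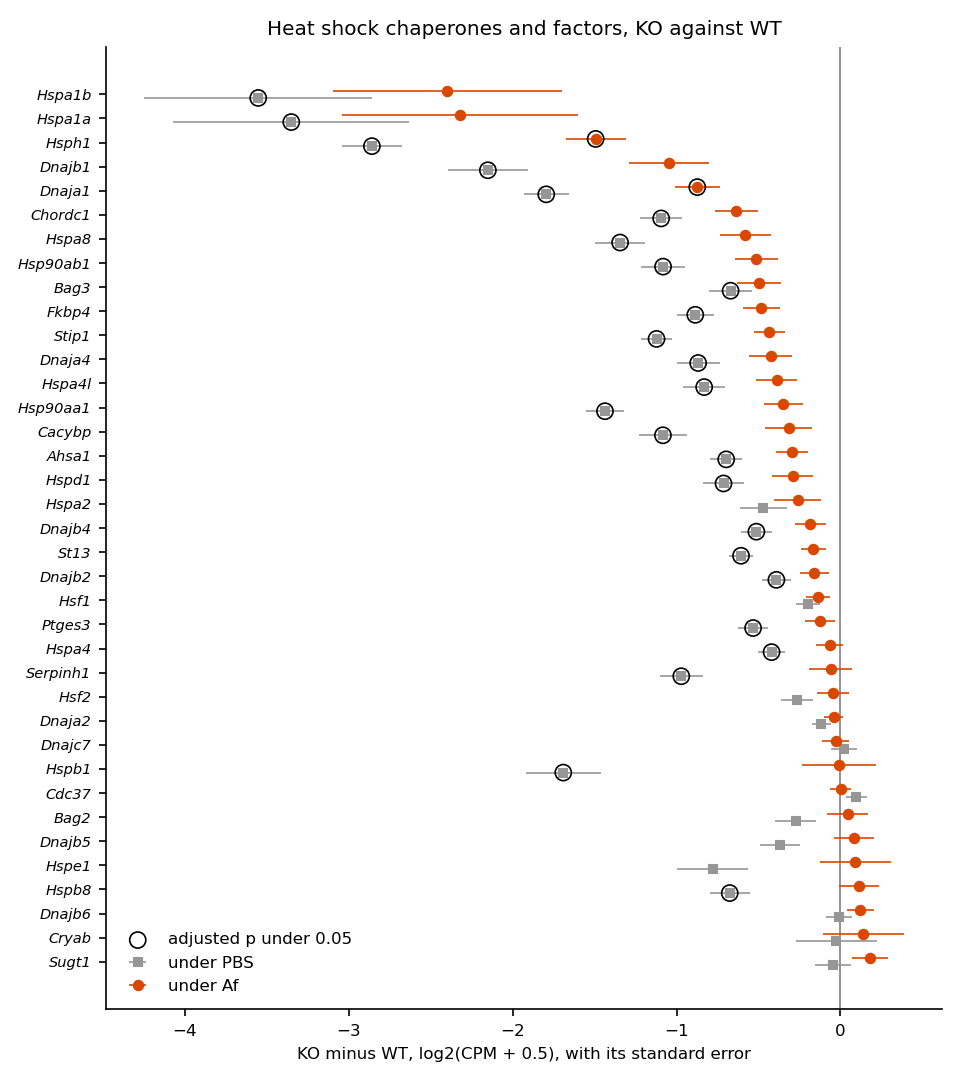
For the 37 tested genes of the heat shock list the horizontal axis gives the KO minus WT difference in log2(CPM + 0.5) with its standard error (bars), under Af (circles) and under PBS (squares), and rings mark adjusted p under 0.05. Under PBS 25 genes are ringed, and under Af Hsph1 at -1.49 and Dnaja1 at -0.87.

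Of the Notch target genes 1 was called, lower in KO_Af. In this pathway membrane-bound ligands such as Dll4 on 1 cell bind Notch receptors on the next, whose intracellular part is then cut loose. That part turns on transcriptional repressors of the Hes and Hey families. Hey1, a Notch target prominent in endothelium, was called: it was at 57.4, 44.7 and 56.6 CPM in WT_Af and 33.7, 30.0 and 28.8 CPM in KO_Af. The KO libraries were all lower, by 1.70-fold (-0.76 ± 0.10, limma adjusted p = 0.0212), and the call was lost without WT_Af 18, WT_Af 20 or KO_Af 14. Under PBS the difference was -0.26 (limma adjusted p = 0.202), and the interaction was not called (limma adjusted p = 0.205). Of the 6 tested targets 4 lay wholly below WT, Hey1, Hey2, Nrarp and Hes1, beside 6.1% of all genes, and the same count lay below without KO_Af 12 (beside 10.7%). Hey2 was at 3.36, 2.85 and 2.85 CPM against 1.77, 1.70 and 2.43 CPM (-0.52 ± 0.16, limma adjusted p = 0.328), and Nrarp, a feedback inhibitor, at 39.6, 36.3 and 39.5 CPM against 27.8, 34.2 and 25.4 CPM (-0.40 ± 0.11, limma adjusted p = 0.253). Hes1 gave -0.37 ± 0.16 (limma adjusted p = 0.440), and it was called lower in KO under PBS (-0.89, limma adjusted p = 0.0137). Summed, the targets held 197, 174 and 194 CPM in WT_Af and 138, 138 and 137 CPM in KO_Af. All 8 tested receptors and ligands had lower means in KO_Af and overlapping groups: Dll4 was at 75, 97.0 and 101 CPM against 50.5, 79.1 and 50.3 CPM (-0.62 ± 0.17, limma adjusted p = 0.254), and Notch1 was lowest in KO_Af 12, at 78.9 CPM against 165 and 159 CPM in the other KO_Af libraries. The median over the 8 was -0.32, and -0.08 without KO_Af 12. They summed to 638, 702 and 812 CPM in WT_Af 18, 19 and 20 and to 389, 691 and 648 CPM in KO_Af 12, 13 and 14. Mfng, which glycosylates Notch, lay wholly below WT (-0.28 ± 0.08, limma adjusted p = 0.257). The 21 tested endothelial markers had a median of -0.07 and summed to 5053, 5329 and 6243 CPM in WT_Af and 4384, 5592 and 5903 CPM in KO_Af, so the groups overlapped. In whole lung, fewer cells of a type and less RNA per cell cannot be told apart.

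Apold1, an early response gene of endothelium, was the called gene of the endothelial list, and it was higher in KO. It was at 1.92, 2.49 and 2.32 CPM in WT_Af and 8.53, 5.97 and 8.48 CPM in KO_Af, with 40 to 76 and 130 to 220 reads. The groups were far apart (1.56 ± 0.18, limma adjusted p = 0.00769), the call was lost without WT_Af 18 (limma adjusted p = 0.0645), and under PBS the difference was much the same (1.41, limma adjusted p = 0.00246). Esm1, a proteoglycan of endothelial tip cells, lay the other way, at 3.07, 3.21 and 2.66 CPM against 2.28, 1.75 and 1.35 CPM (-0.62 ± 0.15, limma adjusted p = 0.205), and was called higher in KO under PBS (0.92, limma adjusted p = 0.00771).

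Ankrd37, an ankyrin repeat gene known as a target of hypoxia-inducible factors, was at 3.93, 3.47 and 3.82 CPM in WT_Af and 16.0, 7.54 and 18.0 CPM in KO_Af. KO_Af 13 was the lowest of the KO libraries and still above every WT library, and the difference was 1.67 ± 0.26 (limma adjusted p = 0.0462), 3.18-fold. Under PBS it was -0.10 (limma adjusted p = 0.900), and the interaction was not called (limma adjusted p = 0.0957). The call under Af was lost without any 1 of WT_Af 18, 19, 20, KO_Af 12 or 14. The stretch before its RefSeq start (GRCm38.p6, chr8:45999851-46000100, minus strand) holds ACGTG, the core of sites for hypoxia-inducible factors, 2 times, in capitals. It lies inside the gene as GENCODE M21 places it (chr8:45996902-46005707).

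Ankrd37: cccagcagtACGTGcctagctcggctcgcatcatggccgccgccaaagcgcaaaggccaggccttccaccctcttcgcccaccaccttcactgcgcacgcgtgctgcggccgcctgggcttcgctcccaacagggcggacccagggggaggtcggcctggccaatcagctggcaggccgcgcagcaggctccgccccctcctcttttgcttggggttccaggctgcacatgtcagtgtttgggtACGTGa

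On either strand, ACGTG was in 19.6% of all promoter entries and in 16 of the 26 entries (61.5%) of the 20 list members that matched. Of the 22 tested hypoxia-inducible genes 1 was called (Ankrd37), 5 lay wholly above WT, beside 7.66% of all genes, and 1 wholly below, beside 6.1%. The median was 0.22. Hilpda, which coats lipid droplets and is not on the list, was at 54.0, 34.3 and 44.4 CPM against 88.6, 63.4 and 86.9 CPM (0.85 ± 0.24, limma adjusted p = 0.265), and Ddit4, an inhibitor of mTORC1, at 26.1, 24.9 and 20.2 CPM against 41.9, 35.4 and 43.8 CPM (0.76 ± 0.26, limma adjusted p = 0.373). The other members wholly above, beside Ankrd37 and Ddit4, were the glycolytic genes Pgk1 and Ldha, at 0.32 ± 0.09 and 0.26 ± 0.10, and the oxidase gene Ero1l, at 0.06 ± 0.07. Bnip3, of mitophagy, was higher in KO_Af 12 and 14, at 71.6 and 62.1 CPM, than in WT_Af (26.2 to 31.5 CPM), but KO_Af 13 was at 25.2 CPM. Vegfa and P4ha1 went the other way, at -0.28 ± 0.17 and -0.24 ± 0.09, and P4ha1, a collagen prolyl hydroxylase, was the member wholly below WT. Ankrd37 overlaps Ufsp2 and Lrp2bp, which lie on the other strand and gave 0.14 and 0.42 (limma adjusted p = 0.622 and 0.446). The sources used here do not state if strand was used in counting.

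Sult4a1, a cytosolic sulfotransferase best known from brain, moved in opposite directions under the 2 exposures. Under Af it was at 0.384, 0.295 and 0.225 CPM in WT and 6.804, 5.42 and 3.43 CPM in KO, or 6 to 9 and 89 to 173 reads. Under PBS it was at 4.06, 3.90 and 0.945 CPM in WT and 0.249, 0.223 and 0.571 CPM in KO. The KO libraries were thus all above WT under Af and all below under PBS. The difference was 2.79 ± 0.39 under Af (limma adjusted p = 0.0271) and -1.88 under PBS (limma adjusted p = 0.0255), and the call under Af was lost without any 1 of the WT_Af libraries, KO_Af 12 or KO_Af 14. Sult4a1 was the 1 gene called for the interaction (0.0062% of those tested), at 4.68 ± 0.56 (limma adjusted p = 0.0465). It reached 1 CPM only in the KO_Af libraries and in WT_PBS 15 and 16, so it was tested because of the groups in which it is high. Its calls are not independent of that selection, and with no filter the interaction was not called (limma adjusted p = 0.0939). At an unadjusted p under 0.05 there were 1750 genes for the interaction, edgeR called 1 and DESeq2 362. The interaction call was lost in 8 of the 12 fits that left out 1 library of any group and was kept without WT_PBS 17, KO_Af 12, 13 or 14. The other tested sulfotransferases were not called: Sult1a1 was at 21.98, 17.1 and 15.8 CPM against 33.1, 16.6 and 39.0 CPM (0.61 ± 0.25, limma adjusted p = 0.422) and Sult1d1 gave 0.51 ± 0.23 (limma adjusted p = 0.446), both with KO_Af 13 inside the WT range or below it.

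**Figure D4:**
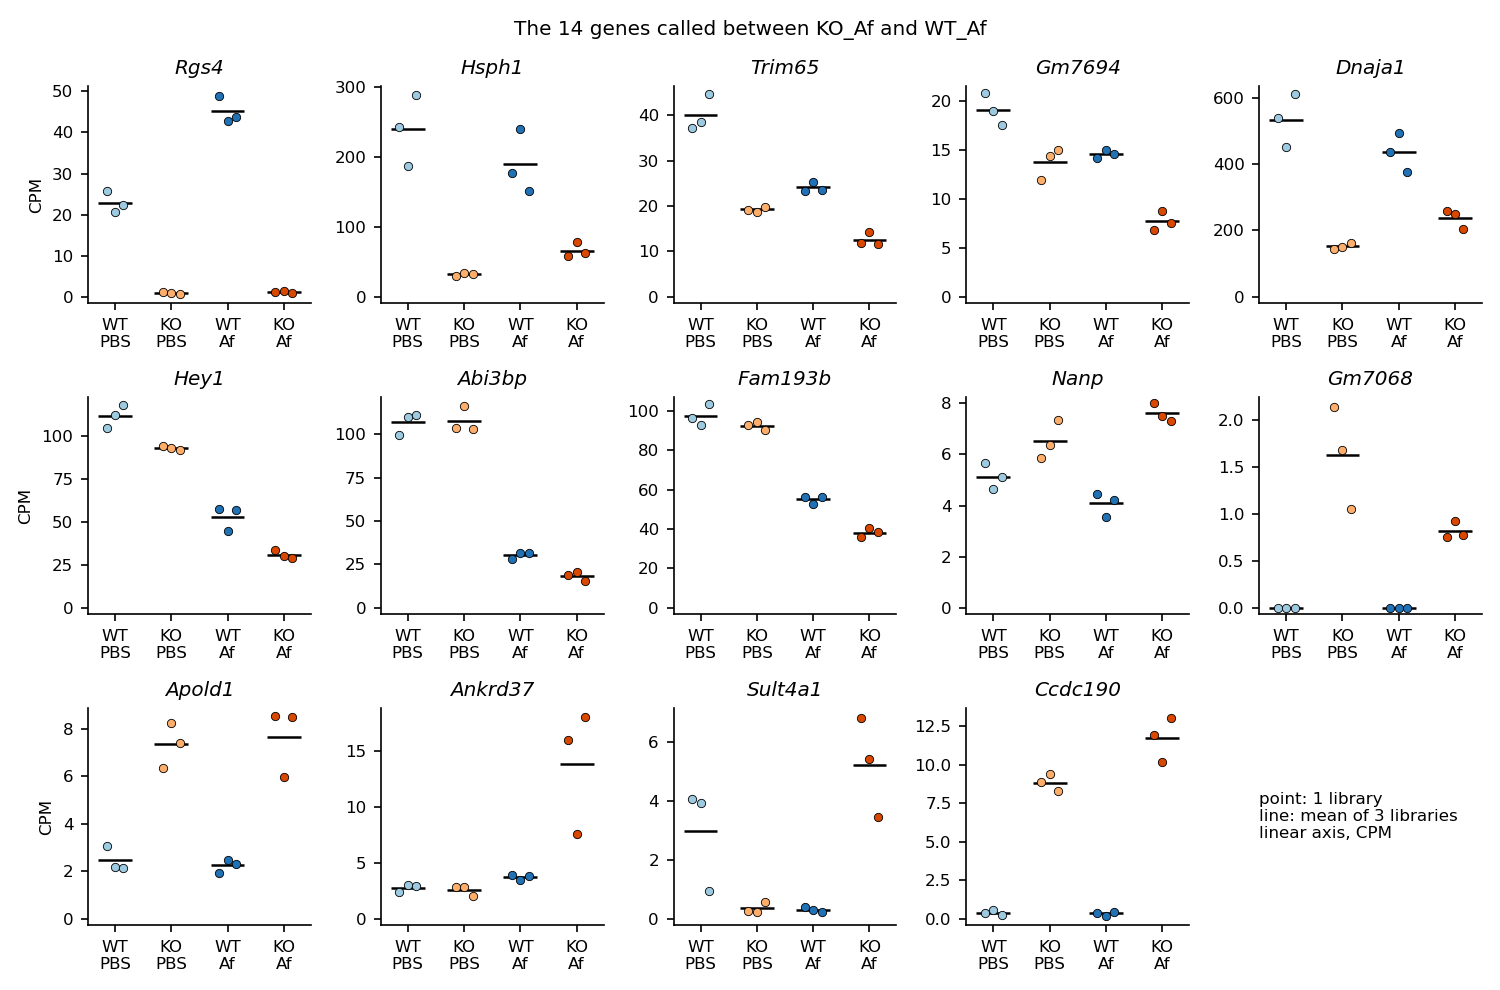
Levels in CPM (vertical axes, linear from 0) of the 14 called genes in each of the 12 libraries (points), with the mean of each group of 3 (lines). Rgs4, Hsph1, Trim65 and Dnaja1 are lower in KO under both exposures, Ankrd37 is apart under Af and was not called under PBS, and Sult4a1 is highest in KO_Af and, among the PBS libraries, in WT_PBS.

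Trim65, an E3 ubiquitin ligase, was at 23.4, 25.4 and 23.5 CPM in WT_Af and 11.8, 14.3 and 11.6 CPM in KO_Af. All KO libraries were well below WT, at 52.2% of the WT mean (-0.92 ± 0.10, limma adjusted p = 0.00754), and the PBS difference was alike in size (-1.04, limma adjusted p = 6.91e-04). It overlaps Trim47 on the same strand, which gave -0.18 (limma adjusted p = 0.528). Abi3bp, an extracellular matrix protein, was at 28.0, 31.6 and 31.8 CPM in WT_Af and 19.0, 20.6 and 15.5 CPM in KO_Af (-0.72 ± 0.11, limma adjusted p = 0.0333). Its PBS difference was 0.01 (limma adjusted p = 0.98), and the interaction was not called (limma adjusted p = 0.0957). It was the 1 gene called, and the 1 member wholly below WT, among 21 tested matrix genes, whose median was -0.06. Fam193b was at 56.4, 52.5 and 56.2 CPM in WT_Af and 35.7, 40.3 and 38.6 CPM in KO_Af (-0.52 ± 0.07, limma adjusted p = 0.0254), the smallest difference among the called genes, and -0.08 under PBS (limma adjusted p = 0.654). Nanp, the phosphatase of the last step to free sialic acid, was at 4.46, 3.57 and 4.23 CPM in WT_Af and 8.02, 7.49 and 7.33 CPM in KO_Af (0.83 ± 0.13, limma adjusted p = 0.0462). Its groups were apart by more than the spread within either, and it was the 1 call among 6 tested genes of sialic acid synthesis. The kinase and epimerase Gne (-0.10 ± 0.10, limma adjusted p = 0.698) and the activating enzyme Cmas (0.17 ± 0.11, limma adjusted p = 0.563) overlapped. The calls for Abi3bp and Nanp were lost without any 1 of WT_Af 18, 19, 20, KO_Af 12 or 14, and that for Fam193b without any 1 of the WT_Af libraries or KO_Af 14. Nanp overlaps Ninl on the same strand, which gave -0.18 (limma adjusted p = 0.587), and Dnaja1 overlaps Smu1 on the other strand, which gave 0.20 (limma adjusted p = 0.446).

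Gm7068, an unprocessed pseudogene at chr1:177808550-177962233, had 0 reads in the 6 WT libraries and 19 to 20 reads in each KO_Af library (0.747, 0.919 and 0.771 CPM). Against a floor of 3 reads per WT_Af library its mean was at least 6.88-fold higher in KO_Af, a bound that covers counting error only. It was called under Af (limma adjusted p = 0.0333) and under PBS (limma adjusted p = 6.91e-04), where KO held 2.13, 1.67 and 1.054 CPM. Those 3 KO_PBS libraries were the only ones at 1 CPM or more, so Gm7068 was tested because of them. Its calls are not independent of that selection. The call under Af was lost without any 1 of WT_Af 18, 19, 20, KO_Af 12 or 14. It starts 8.07 Mb from Rgs4, and reads of near-identical copies could be counted in it.

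Beyond the 14, 359 uncalled genes with a mean of at least 2 CPM had an unadjusted p under 0.01 and groups that did not overlap, 159 higher and 200 lower in KO_Af. Over all tested genes, 1236 (7.66%) lay wholly above and 983 (6.1%) wholly below WT. Of the 12 lowest and 12 highest of the 359 by difference, 23 are described next or with their groups. Npr3, the clearance receptor of natriuretic peptides, had the smallest adjusted p of these 24. It was at 74.9, 97.2 and 122 CPM in WT_Af and 18.1, 40.2 and 46.3 CPM in KO_Af (-1.55 ± 0.28, limma adjusted p = 0.0905). KO_Af 12 was lowest, the difference without it was -1.14, and under PBS Npr3 was called lower in KO (-1.78, limma adjusted p = 0.00759). Of the 7 tested genes of that system Npr2 was the other that lay wholly below WT (-0.23 ± 0.11, limma adjusted p = 0.453), and the receptor Npr1 overlapped (-0.30 ± 0.13, limma adjusted p = 0.440). Cyp1a1, the classic target of the aryl hydrocarbon receptor, was at 27.7, 22.7 and 26.3 CPM against 2.60, 9.01 and 14.3 CPM (-1.78 ± 0.46, limma adjusted p = 0.252), and its difference was -1.13 without KO_Af 12. The neurotrophin receptor genes lay apart in opposite directions. Ntrk3 was at 5.71, 8.45 and 3.11 CPM against 2.20, 2.11 and 1.54 CPM (-1.27 ± 0.30, limma adjusted p = 0.205), and Ntrk2 at 17.6, 20.6 and 13.6 CPM against 70.9, 27.6 and 56.0 CPM (1.47 ± 0.31, limma adjusted p = 0.149). Both were near 0 under PBS, at -0.05 and -0.09. Calca, which encodes calcitonin and the neuropeptide CGRP, was at 1.15, 1.998 and 1.46 CPM against 5.51, 2.62 and 6.17 CPM (1.32 ± 0.26, limma adjusted p = 0.129), also with KO_Af 13 nearest to WT.

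The other lower genes of that set, beside Hspa1a, Hspa1b, Dnajb1 and Sh2d1b1, were Gas5, a host RNA of small nucleolar RNAs (-0.99), Vsnl1, a calcium sensor (-0.91), Pik3c2g, a class II phosphoinositide kinase (-0.91), Nr1d1, the clock repressor REV-ERB alpha (-0.87), and Syt15, a synaptotagmin (-0.84). Their limma adjusted p ran from 0.124 (Gas5) to 0.347 (Syt15). The higher ones included genes of matrix turnover and growth factor control: Mmp13, a collagenase, was at 6.67, 6.88 and 6.29 CPM against 11.5, 17.3 and 11.8 CPM (0.96 ± 0.21, limma adjusted p = 0.167), Adamts1, a secreted protease, gave 0.95 ± 0.21 and Fst, the activin antagonist follistatin, 0.90 ± 0.20 (limma adjusted p = 0.191 and 0.189). In all 3 every KO library was above every WT library. Ly6c1, a surface antigen of monocytes and endothelium, was at 152, 153 and 181 CPM against 295, 229 and 356 CPM (0.84 ± 0.17, limma adjusted p = 0.129). Pla1a, a phospholipase (0.89), and Apoc2, a cofactor of lipoprotein lipase (0.84), were the other 2 outside the groups described below.

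**Figure D5:**
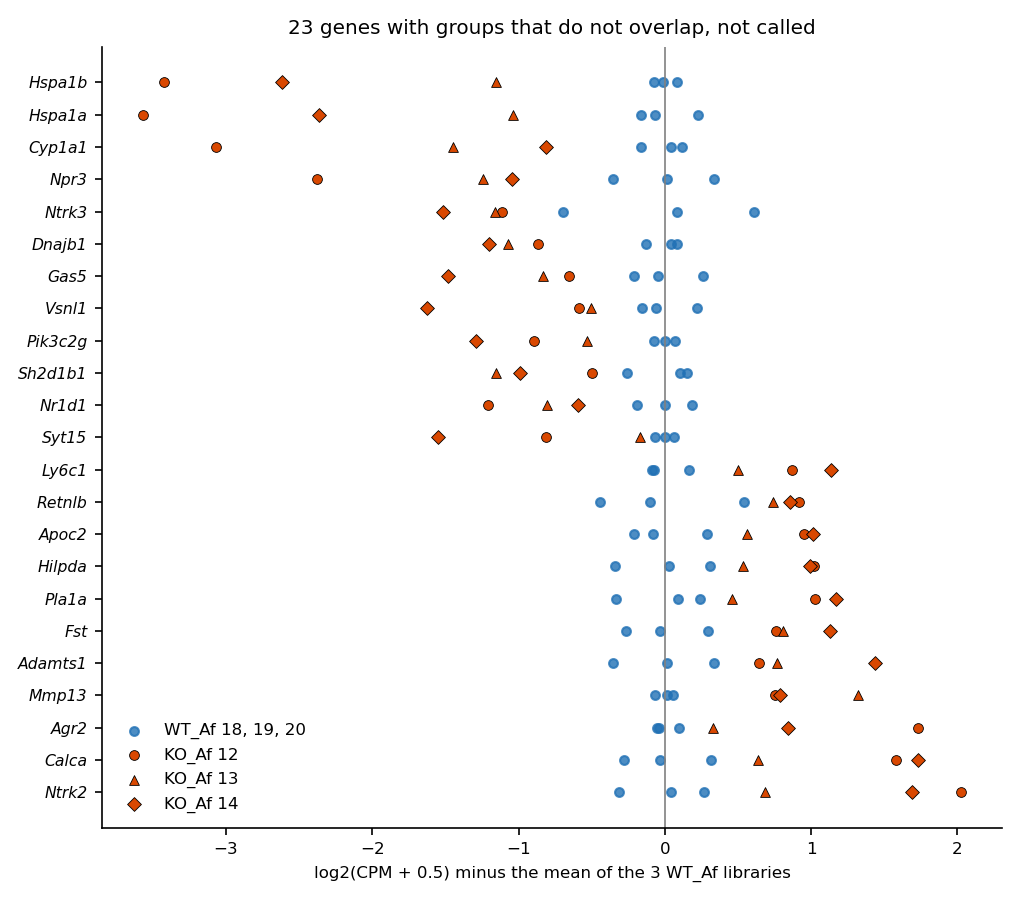
Each row is 1 of 23 of the 24 uncalled genes with the largest differences, and each point 1 Af library, placed on the horizontal axis by its log2(CPM + 0.5) minus the mean of the 3 WT_Af libraries (KO_Af libraries by symbol). Hspa1b reaches below -3 in KO_Af 12, Ntrk2 reaches 2 in the same library, and KO_Af 13 is often the KO library nearest to 0.

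A list of G protein-coupled receptors, G proteins and effectors had 0 calls under limma among its 46 tested genes, where the median was 0.00. Adrb1 (-0.33 ± 0.13, limma adjusted p = 0.413), Adra1a (-0.21 ± 0.11, limma adjusted p = 0.489) and the endothelin receptor Ednra (-0.31 ± 0.13, limma adjusted p = 0.422) lay wholly below WT, 3 of the 46 (6.52%, near the 6.1% of all genes). Of 22 contractile genes of smooth muscle none was called by limma, 2 lay wholly above (Tagln and Actg2, 9.09%, near the 7.66% of all genes) and the median was 0.01. Tagln was at 284, 298 and 269 CPM against 535, 314 and 359 CPM (0.47 ± 0.16, limma adjusted p = 0.366) and at 0.24 without KO_Af 12. Of 32 prostanoid and leukotriene genes none was called by limma and 6 lay wholly above (18.8%, beside 7.66%): Alox5, Alox5ap, Ptgis, Ltb4r1, Pla2g4a and Ptger2. Alox5, the 5-lipoxygenase that starts leukotriene synthesis, was at 26.5, 24.5 and 28.5 CPM against 35.2, 34.4 and 34.0 CPM (0.38 ± 0.08, limma adjusted p = 0.147), and it was called higher in KO under PBS (0.34, limma adjusted p = 0.0391). Its partner Alox5ap gave 0.42 ± 0.11 (limma adjusted p = 0.259).

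Of 25 type 2 immune genes none was called by limma, and 4 lay wholly above WT (16%, beside 7.66% of all genes): Retnlb, Ccl17, Mgl2 and Chil4. The median was 0.16. Retnlb, a goblet cell protein with a role against worms, was at 3.65, 4.75 and 7.68 CPM against 10.1, 8.92 and 9.68 CPM (0.84 ± 0.21, limma adjusted p = 0.252), and Ccl17, which attracts Th2 cells, at 11.0, 12.7 and 12.7 CPM against 23.2, 16.4 and 27.3 CPM (0.82 ± 0.27, limma adjusted p = 0.361). The abundant markers of alternatively activated macrophages overlapped: Retnla was 0.28 ± 0.22 (limma adjusted p = 0.610) and Arg1 0.55 ± 0.41 (limma adjusted p = 0.591). Of 15 mucous cell genes 3 lay wholly above (Agr2, Fcgbp and Clca1, 20% beside 7.66%) and none was called by limma. Agr2, a protein disulfide isomerase that mucins need, was at 38.5, 42.9 and 38.9 CPM against 134, 50.4 and 72.3 CPM (0.97 ± 0.31, limma adjusted p = 0.350), and at 0.59 without KO_Af 12. The neutrophil markers summed to 595, 729 and 823 CPM in WT_Af and 1151, 830 and 1229 CPM in KO_Af, so WT_Af 20 and KO_Af 13 were nearly level. All 15 tested had higher means in KO_Af, and 3 lay wholly above WT (20%, beside 7.66% of all genes). None of them was called, their median was 0.64, and Retnlg was at 168, 105 and 143 CPM against 319, 184 and 198 CPM (0.73 ± 0.27, limma adjusted p = 0.396). Under PBS the median of these markers was 0.57, with 7 wholly above WT, 1 wholly below and 2 called higher in KO. Eosinophil markers overlapped in their sums (244 to 556 CPM against 367 to 577 CPM), though the eosinophil ribonuclease gene Ear6 lay wholly above (0.77 ± 0.22, limma adjusted p = 0.292). T cell markers summed to 706 CPM in WT_Af 18 and to 210 to 261 CPM in the other 5 libraries. Cd4 was at 89.7 CPM in WT_Af 18 and at 18.8 to 29.9 CPM in the rest, and its difference of -0.90 ± 0.38 (limma adjusted p = 0.434) was -0.33 without that library. Ctla4, an inhibitory receptor of regulatory T cells, went the other way (0.55 ± 0.19, limma adjusted p = 0.376).

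Interferon-stimulated genes had 6 of 18 members wholly above WT (33.3%, beside 7.66%), none wholly below and none called by limma, with a median of 0.31. Without KO_Af 12, in which Ifit3 and Irf7 were lowest of the KO libraries, 16 of the 18 lay wholly above (88.9%, beside 14.7% of all genes) and the median was 0.47. The 6 were Bst2, Isg15, Usp18, Oas1a, Irf7 and Ifit3. Isg15, a ubiquitin-like modifier, was at 20.7, 21.7 and 20.7 CPM against 28.8, 29.2 and 36.2 CPM (0.56 ± 0.11, limma adjusted p = 0.129). Bst2, which tethers virus particles to cells, was at 65.2, 61.5 and 68.2 CPM against 88.4, 83.4 and 95.6 CPM (0.45 ± 0.09, limma adjusted p = 0.129). Usp18, the protease that removes Isg15 from proteins, gave 0.40 ± 0.11 (limma adjusted p = 0.257). Clock genes showed the opposite side: 6 of 19 lay wholly below WT (31.6%, beside 6.1%) and none above, none was called by limma, and the median was -0.21. They were the REV-ERB genes Nr1d1 and Nr1d2, Per3 and the PAR bZIP factors Dbp, Tef and Hlf. Nr1d1 was at 126, 143 and 110 CPM against 54.2, 71.7 and 83.4 CPM (-0.87 ± 0.19, limma adjusted p = 0.167), and Per3 at 9.74, 8.52 and 9.17 CPM against 4.88, 6.34 and 5.13 CPM (-0.70 ± 0.13, limma adjusted p = 0.0959). Nr1d2 was at 55.1, 57.4 and 57.7 CPM against 43.2, 37.2 and 41.3 CPM (-0.48 ± 0.09, limma adjusted p = 0.0870). Of the 19 clock genes 9 lay wholly below WT under PBS and 1 above, 2 were called lower in KO there, and the median was -0.28. The time of day of tissue collection is not known here, and its part in these differences was not tested. Glucocorticoid receptor targets had 4 of 15 wholly above (Sgk1, Dusp1, Mt2 and Ddit4, 26.7% beside 7.66%), a median of 0.51 and no call by limma. Under PBS 9 of these 15 lay wholly below WT and 1 above, 3 were called lower in KO, and the median was -0.65. Fkbp5, a standard target of that receptor, was at 94.3, 70.6 and 96.6 CPM in WT_Af and 47.6, 62.8 and 219 CPM in KO_Af, so KO_Af 14 alone was high, and Mt2, a metallothionein, was at 476 CPM in that library and 32.2 to 111 CPM in the other 5.

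The PBS comparison shares no library with the Af comparison, and called 573 genes (3.55%). Of the 266 genes called lower in KO under PBS other than Rgs4, 179 (67.3%) had lower means in KO_Af as well, 3 were called lower (Hsph1, Dnaja1 and Trim65) and 1 was called higher (Sult4a1). Their median was -0.70 under PBS and -0.11 under Af. Over all tested genes the median under Af was 0.00, so lower and higher means were about equally common there. Of the 306 called higher under PBS, 204 (66.7%) had higher means in KO_Af and 3 were called (Ccdc190, Apold1 and Gm7068), with medians of 0.70 and 0.08. The called genes fall by these values into 7 called in the same direction under both exposures, Rgs4, Hsph1, Trim65, Dnaja1, Apold1, Gm7068 and Ccdc190, 6 called under Af only, Gm7694, Hey1, Abi3bp, Fam193b, Nanp and Ankrd37, and Sult4a1 with opposite directions. For the 6, the difference between exposures was not called for any (limma adjusted p = 0.0957 to 0.377). Gm7694 narrowly missed the call under PBS, at -0.46 (limma adjusted p = 0.0564). Ccdc190 and Gm7068 reached 1 CPM in KO libraries only, so they were tested because of the groups in which they are high. The same holds for Sult4a1, which reached it in KO_Af and WT_PBS libraries only.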

How the data were processed

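Poly-A RNA of whole lung was extracted with a Qiagen kit and made into Illumina TruSeq libraries, per the labels' protocols. Per the submitters' processing notes the tools were cutadapt 1.18, STAR 2.7.6a and RSEM 1.3.0, and the notes name the builds GRCm38 and GRCh38 without roles. The deposited table holds a linear signal per gene and library, which the authors named TMM CPM. All values (100%, tolerance 0.01) were whole multiples of 1 step per library, so reads were recovered by division. Totals ran from 20708884 to 30229446 reads. The sources used here do not state if strand was used in counting. Of 49585 genes 49326 (99.5%) matched GENCODE M21 by identifier, which gave coordinates. Promoter windows are from RefSeq (GRCm38.p6).

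The 16126 genes that reached 1 CPM in 3 or more of 12 libraries were tested on log2(CPM + 0.5), which understates changes of low genes. The test was limma 3.58.1 (R 4.3.3, trend option), with all 4 groups in 1 model that shares 1 estimate of spread (8 residual degrees of freedom). Genes were called at an adjusted p (Benjamini-Hochberg) under 0.05. The scripts were tested on simulated data. Alternatives were pseudocounts of 0.1 and 1, other filters, 2 other scalings, other variance models, array weights, the 2 groups alone, edgeR 4.0.16 and DESeq2 1.42.0 on recovered reads, and leaving out each library. List counts without KO_Af 12 were added after seeing the data. Figures were drawn with matplotlib 3.10.9.

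Replicate pairs had Pearson correlations of 0.970 to 0.993 across genes and differed by more than counting noise. The labels do not say that libraries are separate animals, so p-values reflect only variation among these libraries, which may be technical. Library numbers are unique, so no samples are paired.

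Members, the 45 gene lists and the rule for named genes were chosen with earlier results of these data known. The rule takes all called genes. It takes the 12 highest and 12 lowest uncalled genes with unadjusted p under 0.01, groups that do not overlap and a mean of at least 2 CPM. From each list it adds at most 3 genes by smallest p, any member of the heat shock, Notch, hypoxia, RGS and sialic acid lists, genes near Rgs4, and Fkbp5 and Krt13. Gm and Rik names and receptor segments are left out of the uncalled and list genes. A gene of this rule is not reported here. Named outside it, to spell out a count or to give a check, were overlapping genes, Sftpc, Scgb1a1, Retnla, Arg1, Mt2 and list members that lay wholly above or below WT. A wholly above or below count is a description, since 3 against 3 libraries cannot give an exact p under 0.1.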

Additional observations from a re-analysis of the deposited data

Results flagged for a closer look

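Sult4a1 had a genotype difference that differed between exposures by a test of that difference: KO minus WT was 2.79 under Af and -1.88 under PBS, and the interaction was 4.68 (log2, limma adjusted p = 0.0465). KO libraries were higher in 3 of 3 under Af and lower in 3 of 3 under PBS. Sult4a1 reached 1 CPM only in KO_Af and WT_PBS libraries, the groups in which it is high, so its test is not independent of that selection. Groups of 3 are too small for a test of single outlying libraries.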

How the results depend on the processing

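The count of 14 genes called between KO_Af and WT_Af stayed within 1.5 times under pseudocounts of 0.1 and 1, no filter, both other scalings, robust moderation, no trend and edgeR. It was 9 with a filter of 5 CPM, 3 with the 2 groups alone, 187 with DESeq2, 2204 with array weights, and from 3 (without WT_Af 18) to 110 (without KO_Af 13) when 1 library was left out. The PBS count of 573 was 373 with no filter, 1124 with the 2 groups alone, 1216 with DESeq2, 2646 with array weights, and from 131 (without KO_PBS 10) to 430 (without WT_PBS 16) when 1 library was left out. The limma interaction count of 1 (1750 at unadjusted p under 0.05) was 2 with a pseudocount of 1, and 5 with rescaling to the same total, with median-of-ratios scaling and with robust moderation. It was 0 with no filter, with a filter of 5 CPM and with no trend (2415, 1491 and 1748 at unadjusted p under 0.05). It was 1 with edgeR, 362 with DESeq2 and 1602 with array weights. With 1 library left out it ran from 0 to 187, and was 187 without KO_Af 13, 32 without KO_Af 12 and 9 without KO_Af 14. The cause of these differences was not tested.

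The log2 difference of Fkbp5 between KO_Af and WT_Af (0.01) was -0.035 with rescaling to the same total and ran from -0.65 to 0.44 when 1 library was left out. That of Rgs5 (0.23) ran from -0.14 to 0.54. The other 128 named genes kept their direction under every alternative that tested them. Of the 14 calls, Rgs4 and Ccdc190 were kept under all alternatives. Sult4a1 was kept in the 11 fits that tested it with every Af library, and in 1 of the 6 that left out an Af library. No paired analysis was possible because library numbers are unique to each library. The median SD of log2 values was 0.219 in KO_Af and 0.125 in WT_Af, and a gene that was not called is not shown to be equal.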
